A study of Homo sapiens with 30 samples.

Results

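The heat shock chaperones described here are 10 genes: HSPA1A, HSPA1B, HSPA8, HSPH1, HSP90AA1, DNAJB1, BAG3, HSPB1, HSPD1 and HSPE1. They were taken by symbol from 2 tables of 26475 genes each, and all 10 were found in both tables and passed the filter on low counts, as did 14570 genes in all in the first table and 14638 in the second. The libraries are RNA-seq of lineages derived from MDA-MB-231, an established human line of triple-negative breast cancer, with 3 libraries in each of 10 groups. The labels describe each lineage as wild type and distinct, and the series design calls the numbered ones clones; they do not say what the group named Pop is. In isolation, lineages 22, 35 and 45 (first table) and lineages 03, 10, 13 and Pop (second table) were grown alone for about 24 hours in RPMI-1640 with 10% dialyzed fetal bovine serum and 2 mM glutamine. The other 3 groups, in the first table, are lineages 22, 35 and 45 sorted by FACS out of a co-culture of 6 members that had been kept for 15 days in that same medium and passaged every 3 days. No group received a drug or a heat treatment according to the labels. RNA of isolated cells was taken with TRIzol and then a column, and RNA of sorted cells with a column kit alone, so co-culture cannot be told apart from culture time, sorting or extraction.

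Heat shock proteins bind unfolded or partly folded proteins and keep them from aggregating. HSPA8 is the constitutive cytosolic HSP70, and HSPA1A and HSPA1B encode its stress-inducible relatives. J-domain proteins such as DNAJB1 hand clients to HSP70 and stimulate its ATPase, while HSPH1 (HSP110) and BAG3 act as nucleotide exchange factors that release them. HSP90AA1 is the stress-inducible cytosolic HSP90, which matures kinases and steroid receptors, and HSPB1 (HSP27) is a small heat shock protein that holds clients without ATP. HSPD1 (HSP60) and HSPE1 (HSP10) form the folding chamber of the mitochondrial matrix. The transcription factor HSF1 drives many of these genes under proteotoxic stress by binding heat shock elements, which are inverted repeats of the unit nGAAn, and tumour cells often depend on this network.

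The 10 genes are known as targets of HSF1, so the stretches around their start sites were read from RefSeq (GRCh38.p14, 250 bases before to 50 bases after each start). The table held 14 such windows for the 10 members. A heat shock element of 2 units (GAANNTTC or TTCNNGAA, each being its own reverse complement) was present in at least 1 window of 7 members, and in 4737 (13.5%) of all 35116 windows. An element of 3 units (GAANNTTCNNGAA or its reverse complement TTCNNGAANNTTC) contains 2-unit elements that overlap, and was present for 3 members, HSPA8, HSP90AA1 and HSPD1, and in 172 (0.49%) of all windows. The windows of HSPH1, HSPE1 and BAG3 held neither, and sequence outside the windows was not searched. Members are counted by gene and the shares by window, so the 2 are unlike measures. A member with more windows had more chances of a match. The HSPE1 window shares 204 bases with the HSPD1 window at chr2:197500225-197500524, which held no match. It shares 0 bases with the HSPD1 window that holds the 3-unit element, at chr2:197499791-197500090. The matches there begin 245 to 235 bases before that HSPD1 start, on the side facing HSPE1. The HSPE1 window begins at chr2:197500129, so the element lies outside it but between these 2 start sites. The 5 windows below show the near-identical pair HSPA1A and HSPA1B and the 3 members with a 3-unit element; capitals mark every match.
HSPA1A, chr6:31815293-31815592, forward strand: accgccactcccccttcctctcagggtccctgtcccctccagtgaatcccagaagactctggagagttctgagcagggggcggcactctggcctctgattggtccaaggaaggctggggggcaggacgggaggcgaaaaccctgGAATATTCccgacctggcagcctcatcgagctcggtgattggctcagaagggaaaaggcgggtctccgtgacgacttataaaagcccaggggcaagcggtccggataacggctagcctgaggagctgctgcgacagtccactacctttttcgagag
HSPA1B, chr6:31827488-31827787, forward strand: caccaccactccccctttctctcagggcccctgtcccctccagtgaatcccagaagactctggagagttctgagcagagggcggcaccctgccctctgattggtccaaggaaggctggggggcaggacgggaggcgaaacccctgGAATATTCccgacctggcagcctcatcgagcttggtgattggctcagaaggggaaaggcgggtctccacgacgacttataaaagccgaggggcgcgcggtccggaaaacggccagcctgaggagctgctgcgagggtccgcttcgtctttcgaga
HSPA8, chr11:123062087-123062386, reverse strand: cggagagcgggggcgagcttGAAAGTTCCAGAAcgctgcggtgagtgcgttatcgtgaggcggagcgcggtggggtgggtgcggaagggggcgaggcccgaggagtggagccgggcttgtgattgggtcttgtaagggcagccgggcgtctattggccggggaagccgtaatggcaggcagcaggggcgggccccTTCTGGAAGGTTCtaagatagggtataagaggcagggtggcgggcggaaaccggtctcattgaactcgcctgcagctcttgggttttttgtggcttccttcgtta
HSP90AA1, chr14:102086995-102087294, reverse strand: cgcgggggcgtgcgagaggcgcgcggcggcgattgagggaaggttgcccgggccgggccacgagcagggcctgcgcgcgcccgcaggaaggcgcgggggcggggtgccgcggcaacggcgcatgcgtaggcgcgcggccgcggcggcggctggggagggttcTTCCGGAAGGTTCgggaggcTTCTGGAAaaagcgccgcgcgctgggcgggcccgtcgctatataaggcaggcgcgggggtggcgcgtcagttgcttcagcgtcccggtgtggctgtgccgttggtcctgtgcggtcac
HSPD1, chr2:197499791-197500090, reverse strand: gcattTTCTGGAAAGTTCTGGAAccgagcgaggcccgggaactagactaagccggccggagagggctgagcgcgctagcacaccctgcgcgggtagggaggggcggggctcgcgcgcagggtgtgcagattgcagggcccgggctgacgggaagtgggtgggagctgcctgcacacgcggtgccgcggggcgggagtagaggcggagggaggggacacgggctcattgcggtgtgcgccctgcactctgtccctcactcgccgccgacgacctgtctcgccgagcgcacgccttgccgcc
HSPA1A and HSPA1B each hold 1 element of 2 units at nearly the same distance from the start, beginning 106 and 105 bases before it. In HSPA8 the matches begin between 230 and 50 bases before the start, with 2 of the 3-unit kind. A match describes these letters, and no measurement of binding was used here.

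In GENCODE 29 on GRCh38, HSPA1A (chr6:31815464-31817946, forward strand) and HSPA1B (chr6:31827735-31830255, forward strand) are neighbouring genes of 1 exon each. Of all 75-base windows, the read length, of the HSPA1A transcript, 71.2% also occur in that of HSPA1B, and 70.1% in the opposite direction. Their separate values depend on how the authors' quantification split shared reads, so the sum of both was also tested. HSPE1 (chr2:197499994-197503457, forward strand) lies within the annotated extent of HSPD1 (chr2:197486581-197516737, reverse strand) on the opposite strand. The library kit is stranded, but whether strand was used in quantification is not given in the sources used here. Windows shared with pseudogenes or a read-through gene were 22.3% for HSPE1, 10.1% for HSPD1, 7.90% for HSPB1, 6.35% for HSP90AA1 and 1.76% for HSPA8. HSPH1 (chr13:31134974-31162388, reverse strand), DNAJB1 (chr19:14514770-14529770, reverse strand) and BAG3 (chr10:119651370-119677819, forward strand) had none.

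Library totals were 29817900 to 38843700 estimated counts in the first table and 28088400 to 35356200 in the second. Levels are CPM after TMM scaling, which set a gene's counts against the size of its library, changes are log2 fold changes from edgeR's quasi-likelihood test across all genes of a table, and a gene is called when its Benjamini-Hochberg adjusted p is under 0.05. Markers high in the labelled line (VIM, CD44, EGFR, AXL and KRT18) summed to 5296 to 10595 CPM over the libraries. VIM stood at 2333 to 5910.4 CPM over the group means. Of 4 markers listed as absent or near 0, ESR1 and PGR stood at no more than 0.101 CPM. With CDH1 and EPCAM included, 2 or 3 of the 4 were under 1 CPM in each group, and the libraries' sums were 4.56 to 18.6 CPM. Of 5 fibroblast markers 3 or 4 were under 1 CPM in each group, with sums of 2.43 to 13.7 CPM. In each group 3 to 5 of 6 leukocyte markers and 4 or 5 of 6 endothelial or erythroid markers were under 1 CPM. PTPRC (CD45) stood at no more than 0.938 CPM, while LAPTM5 and ESAM varied between groups. The summed leukocyte list stood at 200 to 229 CPM in isolated lineage 22, 141 to 180 CPM in isolated lineage 45 and 10.7 to 26.7 CPM in isolated lineage 35. From co-culture it stood at 142 to 157 CPM in lineage 22, 91.3 to 99.6 CPM in lineage 45 and 67.4 to 73.4 CPM in the libraries labelled 35. The summed endothelial list stood at 6.30 to 7.37 CPM in isolated lineage 35 and 124 to 134 CPM in the libraries labelled 35 from co-culture. Over 14570 genes, mean log2 CPM of the latter correlated at 0.929 with isolated lineage 35, at 0.969 with isolated lineage 45 and at 0.991 with lineage 45 from co-culture. Each of the other co-culture groups was also closer to the co-culture groups than to its own isolated group. Lineage 22 correlated at 0.968 with its own isolated group and at 0.985 and 0.987 with the other co-culture groups, and lineage 45 at 0.976 with its own. Among isolated groups, however, co-cultured 22 and 45 were each closest to their own lineage, and the libraries labelled 35 to lineage 45. By first-table group means, 27 genes were under 0.5 CPM in isolated lineage 35 and at least 5 CPM in the other 5 groups. For 4 genes the reverse held. Every comparison of lineage 35 between conditions therefore concerns the libraries labelled 35, and whether they hold the same cells was not tested. In RNA from a culture, a change in every cell and a change in the share of cells cannot be told apart. The labels do not say whether replicates were separate cultures, so p-values may measure technical spread alone.

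Most heat shock chaperones were higher in co-culture than in isolation in each of the 3 lineages. Lineage 22 had 9 of the 10 called higher and 0 lower, lineage 35 had 7 higher and 2 lower, and lineage 45 had 8 higher and 0 lower. Among all tested genes 56.9% were called in lineage 22 (27% higher and 30% lower), 65.5% in lineage 35 (32.7% and 32.9%) and 41.8% in lineage 45 (18.6% and 23.2%). The members' median log2 fold change was 0.58, 0.49 and 0.37, against -0.038, 0.0071 and -0.03 over all genes. Changes were moderate: 5 members in lineage 22 and 3 in lineage 35 moved at least 1.5-fold, and none did in lineage 45. BAG3 in lineage 35 alone reached 2-fold. Of all genes, 31.5% changed by more, in either direction, than HSPA8 in lineage 22, the smallest of those 5 changes. In lineage 35, 37.7% changed by more than DNAJB1, the smallest of those 3, and 23.5% by more than BAG3. The 3 of 10 in lineage 35 were thus not above the share of all genes. In lineage 45, 25.2% changed by more than HSPD1, the member that changed most. HSPA1B, HSPA8, HSPH1, HSP90AA1 and DNAJB1 were called higher in all 3 lineages, as were 7.77% of all genes. Within lineages 22 and 45 each of these calls was made in every alternative analysis, including fits that used no library labelled 35. Together the members took 0.709% to 0.842% of all counts in isolation in the first table and 0.923% to 1.08% in co-culture, with HSPA8 and HSP90AA1 holding 71.6% to 77.4% of the members' counts.

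**Figure D1:**
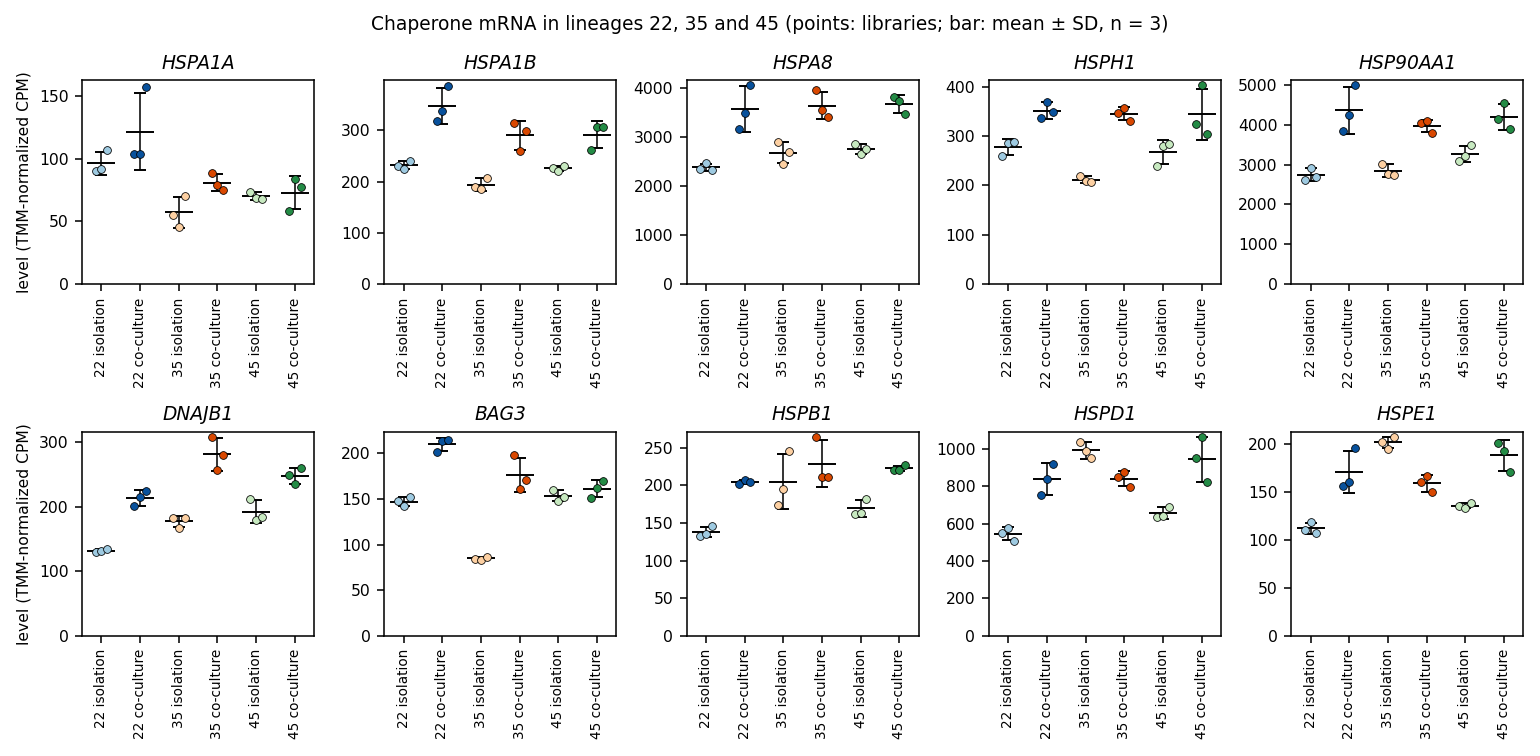
Levels of the 10 chaperones in TMM-normalized CPM (y axes, each from 0) in the 6 groups of the first table; points are libraries, bars the mean ± SD of 3. HSPA8, HSP90AA1 and DNAJB1 stand higher in the co-culture libraries of each lineage, whereas HSPD1 and HSPE1 are highest in isolated lineage 35.

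Among the HSP70 genes, the inducible HSPA1B rose in all 3 lineages. Its level in lineage 22 was 231, 226 and 241 CPM in isolation and 319, 337 and 388 CPM in co-culture, a log2 fold change of 0.58 ± 0.089 (SE, adjusted p = 1.72e-05). In lineage 35 it stood at 189, 186 and 208 CPM and then 315, 259.5 and 298 CPM, a change of 0.58 ± 0.089 (SE, adjusted p = 9.42e-06). In lineage 45 the values were 227, 221 and 231 CPM and 262, 307 and 307 CPM, a change of 0.37 ± 0.088 (SE, adjusted p = 0.00262). No co-culture library overlapped the isolated libraries of its own lineage.

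HSPA1A, its partner with shared reads, was more variable. Isolated lineage 22 held 89.8, 92.1 and 107 CPM and its co-culture libraries 103, 104 and 157 CPM, where replicate 3 stood apart. The change of 0.33 ± 0.17 (SE, adjusted p = 0.101) was not called by edgeR's test but was by DESeq2 (0.37, adjusted p = 0.0469). Without co-culture replicate 3 the change was 0.11, adjusted p = 0.56. Over all alternatives adjusted p ran from 0.000244, for the sum with HSPA1B, to 0.56. Lineage 35 went from 55.3, 46.0 and 70.3 CPM to 88.6, 78.8 and 75.3 CPM, a rise of 0.50 ± 0.17 (SE, adjusted p = 0.0165). That call was lost without isolation replicate 2 (0.37, adjusted p = 0.0847) or co-culture replicate 1 (0.43, adjusted p = 0.0626). Adjusted p over all alternatives ran from 6.21e-05, for the sum with HSPA1B, to 0.0847. In lineage 45 the values of 73.5, 68.8 and 67.6 CPM and 58.4, 83.5 and 77.1 CPM overlapped, with a change of 0.061 ± 0.17 (SE, adjusted p = 0.798). Summed with HSPA1B, the pair was called higher in lineage 22 (log2 fold change 0.51, adjusted p = 0.000244), in lineage 35 (0.56, adjusted p = 6.21e-05) and in lineage 45 (0.30, adjusted p = 0.0222). HSPA1A supplied 18.2% to 30.7% of the pair's counts in the first table. The highest share was that of 1 library of isolated lineage 22.

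HSPA8, the constitutive HSP70, rose in every lineage. It went from 2355, 2469 and 2331 CPM to 3159, 3500.3 and 4073 CPM in lineage 22, a change of 0.59 ± 0.09 (SE, adjusted p = 2.02e-05). In lineage 35 the levels were 2895, 2462 and 2689 CPM and 3957, 3548 and 3421 CPM, a change of 0.44 ± 0.09 (SE, adjusted p = 0.000247), and in lineage 45 they were 2856, 2661 and 2764 CPM and 3827, 3729.7 and 3476 CPM, a change of 0.41 ± 0.09 (SE, adjusted p = 0.00114). The groups of the same condition overlapped between neighbouring lineages, and the lowest co-culture library stood above the highest isolated one. HSPH1, the HSP110 exchange factor, was lowest in isolated lineage 35, at 219, 208 and 207 CPM, and reached 346, 357 and 331 CPM in the co-culture libraries, a change of 0.70 ± 0.093 (SE, adjusted p = 1.51e-06). Its levels were 259, 286 and 288 CPM and 336, 369.6 and 348 CPM in lineage 22, and 239, 279 and 283 CPM and 324, 403 and 304 CPM in lineage 45. The changes there were 0.34 ± 0.093 (adjusted p = 0.00418) and 0.36 ± 0.093 (adjusted p = 0.00381), the second being 0.23, adjusted p = 0.0402 without co-culture replicate 2. In isolation HSPH1 set lineage 35 below the other 2, and in co-culture all libraries of the 3 lineages lay between 304 and 403 CPM.

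HSP90AA1, the inducible cytosolic HSP90, also rose in all 3. Lineage 22 went from 2613, 2922 and 2698 CPM to 3838, 4237 and 4994 CPM, 1.59-fold, with a log2 fold change of 0.67 ± 0.092 (SE, adjusted p = 5.73e-06). Lineage 35 held 3026, 2776 and 2749.8 CPM and then 4035, 4084 and 3800.1 CPM, a change of 0.48 ± 0.092 (SE, adjusted p = 0.00013). Lineage 45 held 3093, 3216 and 3494 CPM and then 4154, 4544 and 3886 CPM, a change of 0.36 ± 0.092 (SE, adjusted p = 0.00382). HSP90AB1, the constitutive cytosolic paralog, is no member but went a different way in lineage 35. It rose by 0.56 ± 0.084 (adjusted p = 1.54e-05) in lineage 22 and by 0.32 ± 0.084 (adjusted p = 0.00486) in lineage 45, and in lineage 35 it changed by -0.53 ± 0.084 (adjusted p = 1.38e-05), from a mean of 3710.2 CPM to 2562 CPM. The ratio of HSP90AA1 to HSP90AB1 counts was 0.755 to 0.789 in the isolated libraries of lineage 35 and 1.34 to 1.62 in the other 15 libraries of that table. The ratio was chosen after its values were seen and is not per length, so only its variation across groups can be read.

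DNAJB1, the J-domain partner of HSP70, was lowest in isolated lineage 22 (130.0, 131 and 134 CPM) and rose to 200.2, 214 and 224 CPM in co-culture, a change of 0.69 ± 0.082 (SE, adjusted p = 8.81e-07). In lineage 35 it went from 182, 167 and 182 CPM to 307, 256 and 279 CPM, a change of 0.67 ± 0.081 (SE, adjusted p = 5.55e-07). Lineage 45 changed by 0.37 ± 0.081 (SE, adjusted p = 0.00134), from 212, 179.7 and 184 CPM to 249, 234 and 259.5 CPM. No pair of groups from 1 lineage overlapped.

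BAG3, the exchange factor that links HSP70 clients to autophagy, had the largest rise of the 10 genes, in lineage 35. It was lowest in isolated lineage 35, at 84.3, 83.1 and 86.8 CPM, and stood at 198, 161 and 171 CPM in the co-culture libraries, 2.08-fold higher, with a log2 fold change of 1.06 ± 0.077 (SE, adjusted p = 2.91e-10). In lineage 22 it rose from 147, 142 and 153 CPM to 201, 214 and 214 CPM, by 0.51 ± 0.076 (SE, adjusted p = 1.41e-05). In lineage 45 the groups overlapped, at 160.2, 148 and 153 CPM and 151, 162 and 170.0 CPM, and the change of 0.069 ± 0.076 (SE, adjusted p = 0.491) was not called. The interval of that change (2 standard errors) ran from -0.083 to 0.22. From lowest to highest, the group means ran isolated 35, isolated 22, isolated 45, co-cultured 45, co-cultured 35 and co-cultured 22, with overlapping libraries between neighbours from isolated 22 to co-cultured 35.

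HSPB1, the small heat shock protein, rose from 133, 136 and 146 CPM to 201, 207 and 205 CPM in lineage 22, a change of 0.56 ± 0.10 (SE, adjusted p = 0.000146). It rose from 162, 164 and 182 CPM to 221, 221 and 227 CPM in lineage 45, a change of 0.39 ± 0.10 (SE, adjusted p = 0.00496). In lineage 35 the isolated libraries were spread, at 174, 195 and 246 CPM, and overlapped the co-culture libraries at 265, 211 and 211 CPM. The change of 0.16 ± 0.10 (SE, adjusted p = 0.184) was not called; without isolation replicate 3 it was (0.31, adjusted p = 0.00857), where adjusted p over the alternatives ran from 0.00857 to 0.738.

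HSPD1 and HSPE1, the mitochondrial chaperonin and its lid, moved together and split the lineages. In isolation HSPD1 stood at 552, 579 and 508 CPM in lineage 22, 1037, 989.8 and 949 CPM in lineage 35 and 635, 639.9 and 691 CPM in lineage 45. In co-culture it stood at 753, 839.8 and 921 CPM, 851, 878 and 795 CPM and 951, 1061 and 822 CPM in the same order. It rose by 0.62 ± 0.093 (SE, adjusted p = 1.43e-05) in lineage 22 and by 0.53 ± 0.092 (SE, adjusted p = 0.000158) in lineage 45, and was lower in lineage 35, with a change of -0.24 ± 0.092 (SE, adjusted p = 0.0295). The call in lineage 35 was weak: it was lost without isolation replicate 1 (-0.20, adjusted p = 0.1), isolation replicate 2 (-0.24, adjusted p = 0.0603), co-culture replicate 1 (-0.24, adjusted p = 0.0522) or co-culture replicate 3 (-0.19, adjusted p = 0.112), with adjusted p from 0.0139 to 0.112 over all alternatives.

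HSPE1 had its lowest and highest groups in common with HSPD1. Its levels were 110.4, 119 and 107 CPM and 156, 160.3 and 196 CPM in lineage 22, and 135, 133 and 138 CPM and 201, 193 and 170.2 CPM in lineage 45, with changes of 0.61 ± 0.086 (SE, adjusted p = 7.66e-06) and 0.47 ± 0.086 (SE, adjusted p = 0.000222). In lineage 35 it went from 202, 195 and 207 CPM to 160.4, 167 and 149 CPM, a fall with no overlap and a log2 fold change of -0.34 ± 0.086 (SE, adjusted p = 0.0016), called in every alternative. Across the 18 libraries of the first table the log2 levels of the 2 genes correlated at r = 0.97, and across the 12 of the second table at r = 0.87. After group means were removed, r was 0.77 and 0.96. These libraries share groups, and the annotated genes overlap on opposite strands. In the second table replicate 1 of Pop was highest in its group for HSPD1 (999, 768 and 714 CPM) and HSPE1 (201, 152 and 147 CPM). The correlation without that library was not taken. The ratio of HSPD1 to HSPE1 counts was 4.57 at the lowest in the first table and 5.501 at the highest.

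**Figure D2:**
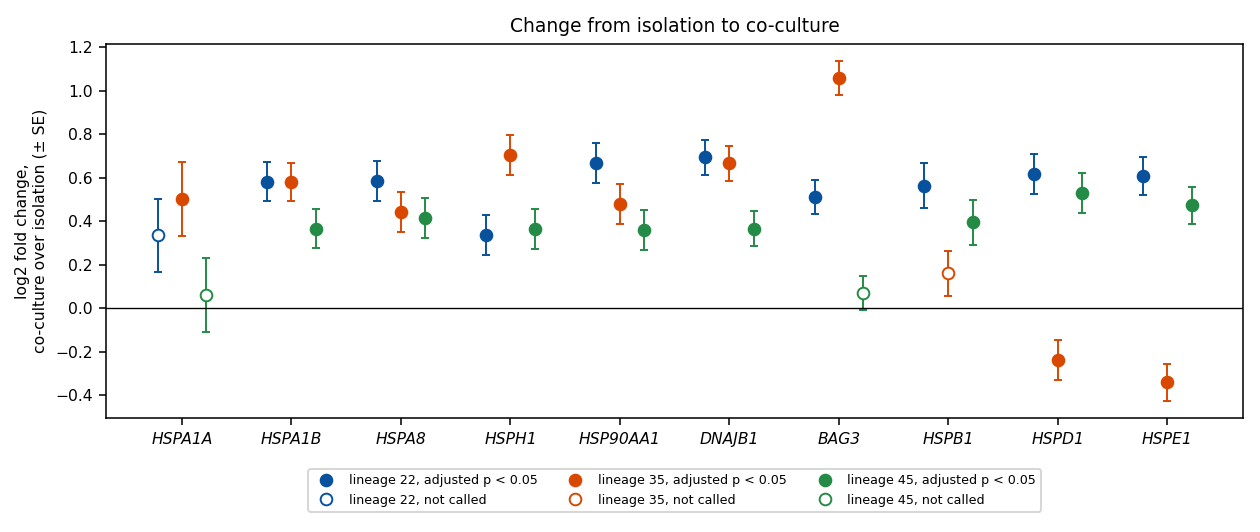
Log2 fold change (y axis, ± SE) from isolation to co-culture for each chaperone (x axis) in lineages 22, 35 and 45; filled points have an adjusted p under 0.05. BAG3 in lineage 35 is highest at 1.06, and HSPD1 and HSPE1 in lineage 35 are the points below 0, at -0.24 and -0.34.

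The size of the co-culture change was then compared between lineages as an interaction term; the 3 comparisons reuse the same libraries. Between lineages 22 and 35, 5 of 10 members were called different (49.6% of all genes, 24.2% higher and 25.4% lower). HSPD1 and HSPE1 changed by 0.85 ± 0.13 (SE, adjusted p = 1.66e-05) and 0.95 ± 0.12 (SE, adjusted p = 1.81e-06) more in lineage 22. BAG3 rose more in lineage 35, with a difference of -0.55 ± 0.11 (SE, adjusted p = 0.00028). Those 3 were called in every alternative. HSPH1, at -0.37 ± 0.13 (SE, adjusted p = 0.0251), and HSPB1, at 0.40 ± 0.15 (SE, adjusted p = 0.0287), were not. HSPH1 was lost without isolated 22 replicate 2 or 3, co-cultured 22 replicate 1, isolated 35 replicate 2 or 3 or co-cultured 35 replicate 2 (-0.35 to -0.33, adjusted p = 0.0503 to 0.0595). HSPB1 was lost without isolated 22 replicate 1 or 2, isolated 35 replicate 3 or co-cultured 35 replicate 2 or 3 (0.26 to 0.39, adjusted p = 0.0558 to 0.109).

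Between lineages 22 and 45, BAG3 alone of the 10 was called, at 0.44 ± 0.11 (SE, adjusted p = 0.00751), where 17.3% of all genes were (9.25% higher and 8.08% lower). DNAJB1, at 0.33 ± 0.11 (SE, adjusted p = 0.0542), was called with replicate number as a block (0.33, adjusted p = 0.045) and by DESeq2 (0.32, adjusted p = 0.0439), in a range of 0.037 to 0.164. It was also called without co-cultured 22 replicate 1, isolated 45 replicate 2 or co-cultured 45 replicate 3 (0.37 to 0.38, adjusted p = 0.037 to 0.0464), and HSP90AA1 was called without co-cultured 22 replicate 1 (0.39, adjusted p = 0.0343). Between lineages 35 and 45, 5 of 10 were called (42.3% of all genes, 22.8% higher and 19.5% lower). BAG3 rose more in lineage 35 by 0.99 ± 0.11 (SE, adjusted p = 2.97e-07), while HSPD1 and HSPE1 differed by -0.76 ± 0.13 (SE, adjusted p = 7.52e-05) and -0.81 ± 0.12 (SE, adjusted p = 1.56e-05). HSPH1 (0.34 ± 0.13, adjusted p = 0.0416) and DNAJB1 (0.30 ± 0.11, adjusted p = 0.0406) were each lost somewhere. HSPH1 was lost with RLE scaling (0.31, adjusted p = 0.0545) and with only the groups compared (0.34, adjusted p = 0.057), and without isolated 35 replicate 2 or 3, co-cultured 35 replicate 1 or 2, isolated 45 replicate 2 or 3 or co-cultured 45 replicate 1 or 3 (0.26 to 0.34, adjusted p = 0.0654 to 0.116). DNAJB1 was lost with RLE scaling (0.27, adjusted p = 0.0719), with no filter (0.31, adjusted p = 0.0578), with only the groups compared (0.30, adjusted p = 0.0608) and by DESeq2 (0.27, adjusted p = 0.0568), and without isolated 35 replicate 2, co-cultured 35 replicate 1 or 3, isolated 45 replicate 1 or co-cultured 45 replicate 1 or 2 (0.22 to 0.30, adjusted p = 0.0505 to 0.13), and HSPA1A was gained without isolated 35 replicate 3 (0.61, adjusted p = 0.0448). For HSPA1A, HSPA1B, HSPA8 and HSP90AA1 no difference between any of the 3 responses was called with all libraries, which does not show that they responded alike. For the sum of HSPA1A and HSPA1B the differences were -0.049, adjusted p = 0.796 between lineages 22 and 35, 0.21, adjusted p = 0.329 between 22 and 45 and 0.26, adjusted p = 0.146 between 35 and 45. For HSP90AA1 in lineage 22 against lineage 45 the unadjusted interval of 2 standard errors ran from 0.047 to 0.57.

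In isolation lineage 35 stood apart from both other lineages in the mitochondrial pair, BAG3 and HSPH1. Lineage 22 against lineage 35 gave 4 members called higher and 4 lower (63.6% of all genes, 32.2% higher and 31.4% lower). Lineage 22 was lower in HSPD1 (-0.86 ± 0.093, adjusted p = 8.85e-08) and HSPE1 (-0.85 ± 0.086, adjusted p = 4.07e-08), and in HSPB1 (-0.57) and DNAJB1 (-0.43). It was higher in BAG3 (0.80 ± 0.077, adjusted p = 1.86e-08), HSPA1A (0.75), HSPH1 (0.40) and HSPA1B (0.26). Of these 8, HSPA1B lost its call without isolated lineage 22 replicate 3 (0.23, adjusted p = 0.0566). It also lost it without isolated lineage 35 replicate 1 or 2 (0.24, adjusted p = 0.055, and 0.23, adjusted p = 0.063). Its adjusted p ran from 0.00237, for the sum with HSPA1A, to 0.063. The other 7 were called in every alternative. The sum of HSPA1A and HSPA1B differed by 0.39, adjusted p = 0.00237, against the larger value of HSPA1A alone.

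Lineage 22 against lineage 45 gave 1 member called higher and 5 lower (38.4% of all genes, 18.6% higher and 19.8% lower). DNAJB1, lower in lineage 22 at -0.55 ± 0.082 (SE, adjusted p = 2.05e-05), was called in every alternative. HSPA1A, HSP90AA1, HSPB1, HSPD1 and HSPE1, with log2 differences of 0.46, -0.25, -0.29, -0.26 and -0.27, were each lost somewhere. HSPA1A was lost when summed with HSPA1B (0.15, adjusted p = 0.258), with no filter (0.44, adjusted p = 0.0943) and without isolated 22 replicate 1, 2 or 3 or isolated 45 replicate 1, 2 or 3 (0.38 to 0.51, adjusted p = 0.0554 to 0.148). HSP90AA1 was lost with the stricter filter (-0.22, adjusted p = 0.0605) and without isolated 22 replicate 1 or 3 or isolated 45 replicate 2 or 3 (-0.27 to -0.20, adjusted p = 0.061 to 0.143). HSPB1 was lost with the stricter filter (-0.26, adjusted p = 0.0565) and without isolated 22 replicate 1 or 2 or isolated 45 replicate 3 (-0.28 to -0.24, adjusted p = 0.0821 to 0.126). HSPA8 was gained with only the groups compared (-0.19, adjusted p = 0.00577). HSPD1 was lost without isolated 22 replicate 1 or 3 or isolated 45 replicate 3 (-0.27 to -0.21, adjusted p = 0.0616 to 0.131), and HSPE1 without isolated 22 replicate 1 or 3 (-0.27 to -0.25, adjusted p = 0.0507 to 0.0674). Lineage 35 against lineage 45 gave 3 higher and 3 lower (51.8% of all genes, 24.3% higher and 27.6% lower). HSPD1 (0.60 ± 0.092, adjusted p = 1.52e-05) and HSPE1 (0.57 ± 0.086, adjusted p = 1.07e-05) were higher in lineage 35, and BAG3 (-0.86 ± 0.077, adjusted p = 9.33e-09) and HSPH1 (-0.34 ± 0.093, adjusted p = 0.00445) lower. HSPB1 (0.27 ± 0.10, adjusted p = 0.0329) was lost with only the groups compared (0.28, adjusted p = 0.0581) and without isolated 35 replicate 3 or isolated 45 replicate 1 or 2 (0.12 to 0.25, adjusted p = 0.0993 to 0.3). HSPA1B (-0.22 ± 0.088, adjusted p = 0.0434) was lost when summed with HSPA1A (-0.24, adjusted p = 0.0558), with RLE scaling (-0.21, adjusted p = 0.0582) and with no filter (-0.22, adjusted p = 0.0525), and without isolated 35 replicate 1 or 2 or isolated 45 replicate 1, 2 or 3 (-0.24 to -0.19, adjusted p = 0.0639 to 0.136). HSP90AA1 was gained with only the groups compared (-0.19, adjusted p = 0.0318). HSPA1A was gained without isolated 35 replicate 3 (-0.47, adjusted p = 0.037).

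After co-culture fewer members differed, and so did fewer of all genes. The share of all genes called went from 63.6% in isolation to 31.1% in co-culture for lineage 22 against lineage 35. It went from 38.4% to 25.2% for lineage 22 against 45, and from 51.8% to 12.7% for lineage 35 against 45. Lineage 22 against lineage 35 gave 3 higher and 1 lower (31.1% of all genes, 15.6% higher and 15.5% lower). DNAJB1, lower in lineage 22 at -0.40 ± 0.081 (SE, adjusted p = 0.000817), was called in every alternative. HSPA1A (0.59 ± 0.17), HSPA1B (0.26 ± 0.088) and BAG3 (0.25 ± 0.076) were higher with adjusted p = 0.0144, 0.0307 and 0.0168, respectively. HSPA1A was lost without co-cultured 22 replicate 3 or co-cultured 35 replicate 3 (0.36 to 0.54, adjusted p = 0.0563 to 0.0953). HSPA1B was lost with only the groups compared (0.27, adjusted p = 0.0911) and without co-cultured 22 replicate 3 or co-cultured 35 replicate 2 (0.17 to 0.18, adjusted p = 0.166 to 0.168). Their sum differed by 0.34, adjusted p = 0.0147. BAG3 was lost with only the groups compared (0.26, adjusted p = 0.0671) and without co-cultured 22 replicate 2 or co-cultured 35 replicate 2 or 3 (0.19 to 0.23, adjusted p = 0.0504 to 0.107). Lineage 22 against lineage 45 gave 3 higher and 0 lower (25.2% of all genes, 13.2% higher and 12% lower). BAG3 (0.38 ± 0.076, adjusted p = 0.000967) and HSPA1A (0.73 ± 0.17, adjusted p = 0.00445) were called in every alternative, but HSPA1A summed with HSPA1B differed by only 0.36, adjusted p = 0.0112. HSPA1B (0.25 ± 0.088, adjusted p = 0.0394) was lost without co-cultured 22 replicate 2 or 3 or co-cultured 45 replicate 1 (0.17 to 0.28, adjusted p = 0.0556 to 0.196). It was also lost with no filter (0.25, adjusted p = 0.0518) and with only the groups compared (0.26, adjusted p = 0.18). Its adjusted p ran from 0.0112, for the sum with HSPA1A, to 0.196. With replicate number as a block, DNAJB1 was also called lower in lineage 22 (-0.22, adjusted p = 0.048) against adjusted p = 0.0555 without it. DNAJB1 was gained without co-cultured 22 replicate 3 (-0.26, adjusted p = 0.0474), HSPD1 without co-cultured 45 replicate 3 (-0.26, adjusted p = 0.0406) and HSPE1 without co-cultured 22 replicate 3 (-0.25, adjusted p = 0.0328). Lineages 35 and 45 differed in 0 members by edgeR's quasi-likelihood test (12.7% of all genes, 6.42% higher and 6.28% lower). DESeq2 called 1, HSPE1 (-0.26, adjusted p = 0.0289), which was also gained without co-cultured 45 replicate 3 (-0.31, adjusted p = 0.0306), and 2 members had an unadjusted p under 0.05.

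**Figure D3:**
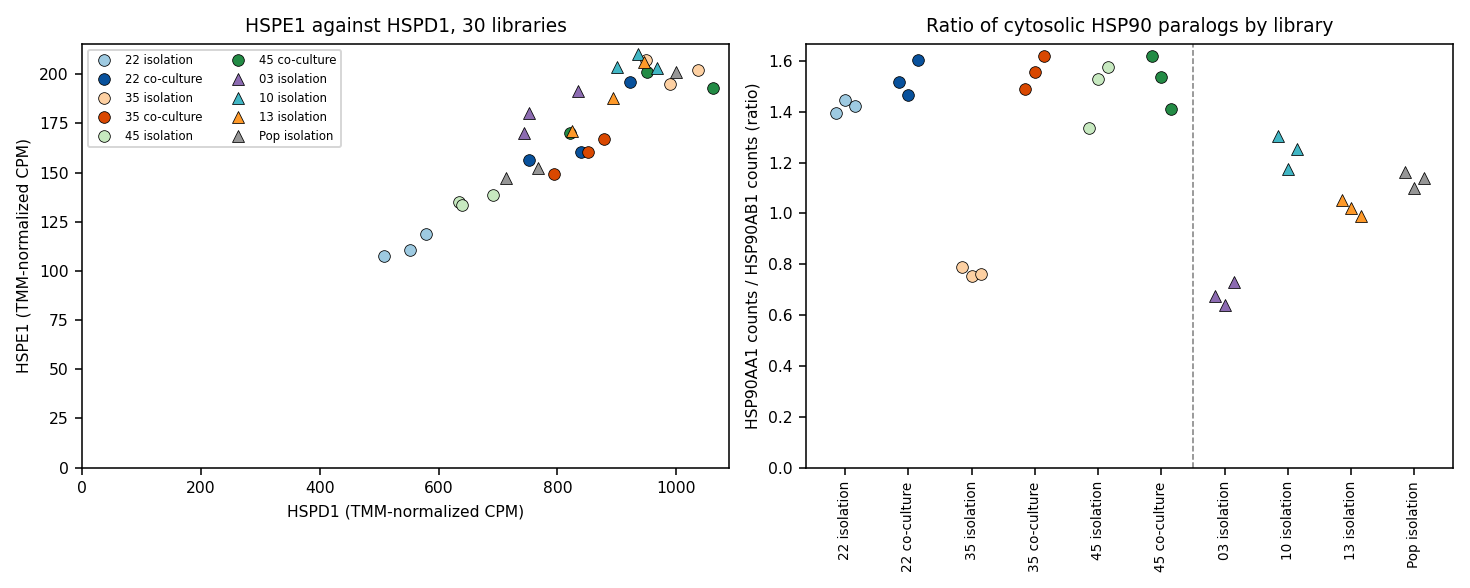
Left, HSPE1 against HSPD1 (both axes TMM-normalized CPM) in 30 libraries, circles for the first table and triangles for the second; right, the ratio of HSP90AA1 to HSP90AB1 counts (y axis) by group (x axis), tables parted by a dashed line. Within each table the levels of the pair rise together. The ratio is at most 0.789 in isolated lineage 35 among the groups of the first table, and at least 0.992 outside lineage 03 in the second.

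In the second table the largest called differences were those of HSP90AA1. It was low in lineage 03, at 1721, 1688 and 1836 CPM, against 3348, 2948 and 3276 CPM in lineage 10, 3312, 2985 and 3597 CPM in lineage 13 and 4102, 3002 and 2825 CPM in Pop. Lineage 03 overlapped no other group. The log2 difference was -0.92 ± 0.13 (SE, adjusted p = 5.63e-05) against Pop, -0.87 ± 0.13 (SE, adjusted p = 7.69e-05) against lineage 10 and -0.92 ± 0.13 (SE, adjusted p = 4.59e-05) against lineage 13, all called in every alternative. Replicate 1 of Pop stood apart from its group at HSP90AA1, and was also highest there for HSPD1 (999, 768 and 714 CPM) and HSPE1 (201, 152 and 147 CPM). The paralog HSP90AB1 was at 2565 CPM in lineage 03 and 2909 CPM in Pop, a difference of -0.18 ± 0.12 (SE, adjusted p = 0.222) that was not called. The count ratio of HSP90AA1 to HSP90AB1 was 0.641 to 0.732 in lineage 03 and 0.992 to 1.30 in the other 9 libraries.

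**Figure D4:**
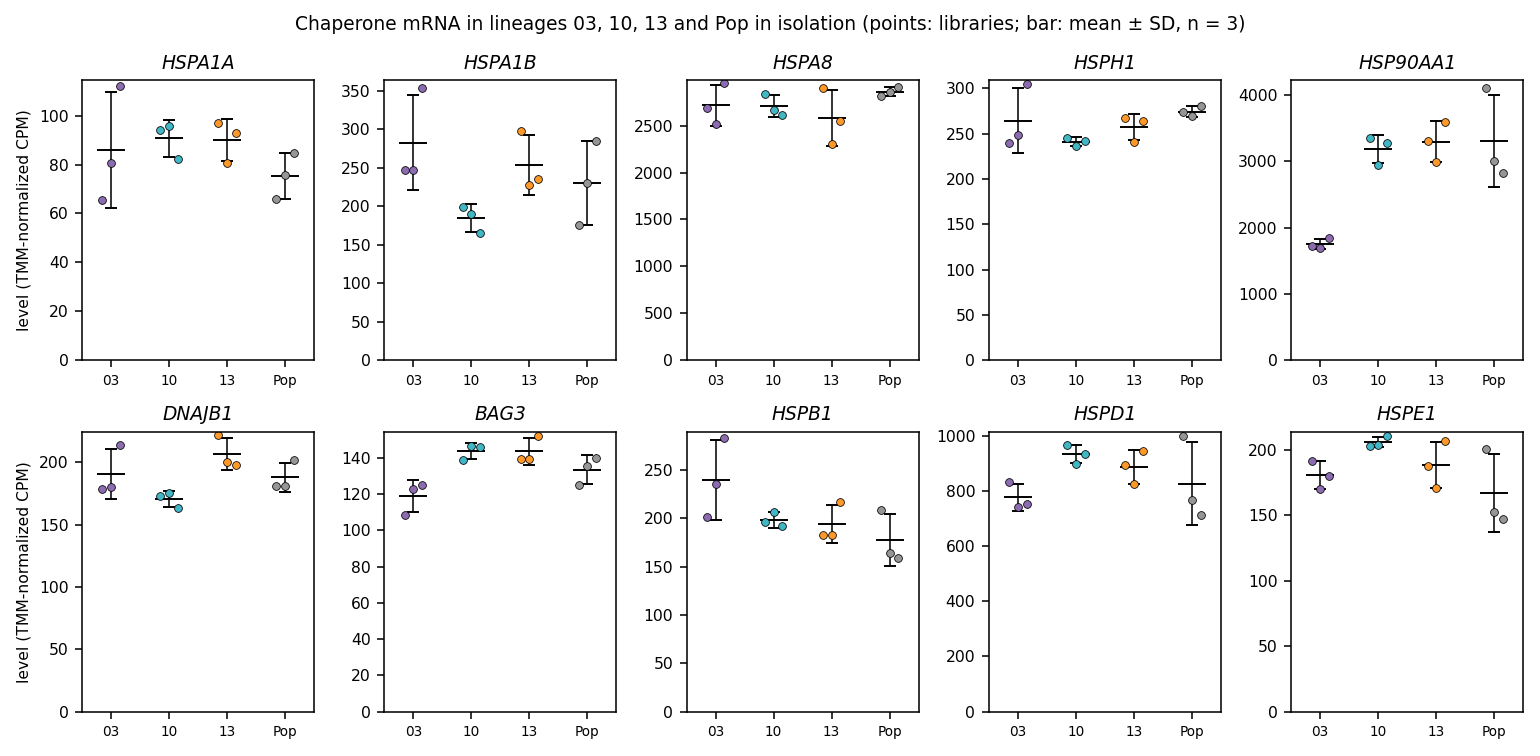
Levels of the 10 chaperones in TMM-normalized CPM (y axes, each from 0) in lineages 03, 10, 13 and Pop in isolation; points are libraries, bars the mean ± SD of 3. HSP90AA1 in lineage 03 lies at 1748 ± 77.7 CPM, below every other library; most other panels overlap.

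Against Pop, lineage 03 had 1 member called higher and 1 lower (48.7% of all genes, 23.2% higher and 25.5% lower). The higher one, HSPB1, stood at 201, 235 and 283 CPM against 208, 164 and 159 CPM, a difference of 0.43 ± 0.13 (SE, adjusted p = 0.0125) with overlapping libraries; it was lost without replicate 3 of lineage 03 (0.30, adjusted p = 0.0669), within 0.00139 to 0.0669 over all alternatives. Without replicate 1 of Pop 4 members were called, BAG3 (-0.21, adjusted p = 0.0216) and HSPE1 (0.27, adjusted p = 0.0109) being added, against ranges of 0.0216 to 0.27 and 0.0109 to 0.76. HSPA1B was gained without Pop replicate 3 (0.49, adjusted p = 0.0361). Lineage 10 against Pop gave 1 call (42.3% of all genes, 18.8% higher and 23.5% lower), HSPE1 at 0.30 ± 0.11 (SE, adjusted p = 0.039). It was lost with only the groups compared (0.30, adjusted p = 0.0765) and without isolated 10 replicate 1, 2 or 3 or Pop replicate 2 or 3 (0.23 to 0.31, adjusted p = 0.0776 to 0.139). Without replicate 1 of Pop 2 calls were made, HSPE1 (0.46, adjusted p = 0.000286) and HSPD1 (0.33, adjusted p = 0.00279, range 0.00279 to 0.505). Lineage 13 against Pop gave 0 calls by edgeR's quasi-likelihood test (45.2% of all genes, 21% higher and 24.2% lower) and 0 by DESeq2, and 0 members had an unadjusted p under 0.05. Without replicate 1 of Pop, HSPD1 (0.24, adjusted p = 0.0185, range 0.0185 to 0.999) and HSPE1 (0.31, adjusted p = 0.0045, range 0.0045 to 0.553) were called.

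Among the single lineages, BAG3 joined HSP90AA1 in being low in lineage 03. It stood at 109, 123 and 125 CPM in lineage 03, 139, 146 and 146 CPM in lineage 10 and 139.5, 139 and 152 CPM in lineage 13. The differences of -0.27 ± 0.075 (SE, adjusted p = 0.00756) and -0.27 ± 0.075 (SE, adjusted p = 0.00734) were called in every alternative. HSPA1B was higher in lineage 03 than in lineage 10, at 247, 248 and 354 CPM against 199, 189.5 and 165 CPM, by 0.62 ± 0.18 (SE, adjusted p = 0.0102). Replicate 3 of lineage 03 was the highest library, and the call was lost without it (0.42, adjusted p = 0.0609) and for the sum with HSPA1A (0.42, adjusted p = 0.0502), over a range of 0.00174 to 0.0609. HSPB1 was gained without isolated 03 replicate 1 (0.39, adjusted p = 0.0234) for lineage 03 against lineage 10. For lineage 03 against lineage 13 HSPB1 was gained with RLE scaling (0.33, adjusted p = 0.0397), with only the groups compared (0.33, adjusted p = 0.0437) and by DESeq2 (0.33, adjusted p = 0.0272), and without isolated 03 replicate 1 or isolated 13 replicate 3 (0.39 to 0.42, adjusted p = 0.0156 to 0.0324). For lineage 03 against lineage 10 HSPD1 was gained with replicate number as a block (-0.27, adjusted p = 0.0417), with only the groups compared (-0.26, adjusted p = 0.00404) and by DESeq2 (-0.26, adjusted p = 0.0453), and HSPE1 with only the groups compared (-0.19, adjusted p = 0.0183). The calls made 1 higher and 2 lower of 10 for lineage 03 against lineage 10 (51.4% of all genes, 26.4% higher and 25% lower) and 0 higher and 2 lower against lineage 13 (53.2% of all genes, 26.1% higher and 27.1% lower). Between lineages 10 and 13 (34.6% of all genes, 16.6% higher and 18% lower) DNAJB1 was lower in lineage 10, at 173, 175 and 163 CPM against 222, 200.2 and 198 CPM, a difference of -0.28 ± 0.084 (SE, adjusted p = 0.0207). That call was lost without replicate 1 or 3 of lineage 10 (-0.29, adjusted p = 0.0524, and -0.25, adjusted p = 0.0855) or replicate 1 of lineage 13 (-0.22, adjusted p = 0.092), within 0.00556 to 0.092. HSPA1B was gained with only the groups compared (-0.45, adjusted p = 0.00695) and by DESeq2 (-0.45, adjusted p = 0.0422) between lineages 10 and 13. HSPA1A, HSPA8, HSPH1 and HSPD1 were called in no comparison of this table by edgeR's test with all libraries and the settings of the main analysis; the HSPA8 and HSPH1 group means spanned 2584 to 2863 CPM and 241 to 274 CPM.

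The regulators and partners of the heat shock system were read from lists kept apart from the members. Their counts stand beside the shares of all tested genes called against isolation, 56.9% in lineage 22, 65.5% in lineage 35 and 41.8% in lineage 45, with the split by direction given above. Of 4 genes of the HSF list, lineage 22 had 1 called higher and 1 lower, lineage 35 had 1 and 1, and lineage 45 had 2 and 1. HSF1, the master activator, rose in lineage 22 (0.66 ± 0.083, adjusted p = 1.91e-06) and lineage 45 (0.34 ± 0.082, adjusted p = 0.00246), and was not called in lineage 35 (0.10 ± 0.082, adjusted p = 0.314). HSBP1, a negative regulator of HSF1, rose in lineage 35 (0.36) and lineage 45 (0.38), and HSF2 was called in none of the 3. HSF4, a low gene named after its values were seen, fell in lineages 22 (-2.42 ± 0.39, adjusted p = 8.53e-05), 35 (-2.80 ± 0.42, adjusted p = 2.38e-05) and 45 (-2.37 ± 0.38, adjusted p = 0.000175). Of 15 other textbook HSF1 targets tested of 16, lineage 22 had 10 called higher and 2 lower, lineage 35 had 10 and 1, and lineage 45 had 11 and 1, with medians of 0.43, 0.33 and 0.35. FKBP4, the HSP90 immunophilin, rose in all 3 lineages (0.58, 0.73 and 0.67), and HSPA4L, an HSP110 relative, by 0.53, 1.20 and 0.63. HSPB8, the small heat shock protein that works with BAG3, fell in lineage 22 (-1.32 ± 0.13, adjusted p = 1.39e-07), and rose in lineage 35 (2.26 ± 0.15, adjusted p = 9.52e-11) and lineage 45 (0.34 ± 0.13, adjusted p = 0.0416).

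Of 14 cochaperones of HSP70 and HSP90, lineage 22 had 11 called higher and 0 lower, lineage 35 had 8 and 2, and lineage 45 had 7 and 0, with medians of 0.51, 0.24 and 0.25. STIP1, which passes clients from HSP70 to HSP90, rose in lineages 22 (0.62 ± 0.08, adjusted p = 2.66e-06) and 45 (0.43 ± 0.08, adjusted p = 0.000293). UNC45A, a myosin chaperone, rose by 0.82 in lineage 22 and changed by -0.66 in lineage 35. FKBP5, an HSP90 cochaperone that restrains steroid receptors, fell in lineage 35 from 152 to 76.1 CPM (adjusted p = 7.54e-09). Of 8 subunits of TRiC, the cytosolic chaperonin that folds actin and tubulin, lineage 22 had 8 called higher and 0 lower, lineage 35 had 3 and 1, and lineage 45 had 7 and 0, with medians of 0.58, 0.041 and 0.44. CCT8 rose in lineages 22 (0.60) and 45 (0.43) and fell in lineage 35 (-0.20, adjusted p = 0.0246), while CCT3 rose in all 3 (0.64, 0.42 and 0.45).

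Of 9 mitochondrial chaperone partners and proteases, lineage 22 had 5 called higher and 0 lower, lineage 35 had 6 and 2, and lineage 45 had 5 and 0, with medians of 0.31, 0.31 and 0.26. The 5 called in lineage 22 are near the share of all genes called in either direction. TRAP1, the mitochondrial HSP90, rose in all 3 lineages (0.79, 0.33 and 0.50). HSPA9, the mitochondrial HSP70, rose in lineages 22 (0.42) and 45 (0.35), and HTRA2, a protease of the intermembrane space, fell in lineage 35 (-1.15 ± 0.078, adjusted p = 9.45e-11). Of the other HSP70 and HSP110 genes (11 of 12 tested), lineage 22 had 4 called higher and 4 lower, lineage 35 had 7 and 1, and lineage 45 had 5 and 0, with medians of 0.12, 0.33 and 0.34. HSPA12A, a distant HSP70, was higher in co-culture in the libraries labelled 35, at 8.59 CPM against 0.15 CPM in isolation (adjusted p = 3.24e-13), and changed by -0.54 ± 0.14 (SE, adjusted p = 0.00264) in lineage 22. Of 16 other J-domain genes tested of 17, lineage 22 had 4 called higher and 6 lower, lineage 35 had 9 and 2, and lineage 45 had 2 and 2, with medians of -0.03, 0.22 and 0.041; the 10 and 11 called in lineages 22 and 35 are near the shares of all genes. DNAJB9, an endoplasmic reticulum protein, fell in lineage 22 (-1.66 ± 0.15, adjusted p = 4.23e-08) and rose in lineage 35 (0.66 ± 0.15, adjusted p = 0.000778). Of 5 other BAG genes, lineage 22 had 3 called higher and 1 lower, lineage 35 had 0 and 2, and lineage 45 had 2 and 0, with medians of 0.49, -0.13 and 0.20. BAG2, a cofactor of HSP70 that inhibits its ubiquitin ligase, rose in lineages 22 (0.49) and 45 (0.34) and fell in lineage 35 (-0.30). Of 9 other small heat shock genes only HSPB8 and HSPB11 passed the filter.

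Immediate early genes, which respond within minutes to handling and dissociation as well as to growth signals, were also called in part. Of 12, lineage 22 had 4 called higher and 1 lower, lineage 35 had 8 and 2, and lineage 45 had 8 and 0. The shares of all genes called were 56.9%, 65.5% and 41.8%, so lineage 22 was below its share. The medians were 0.029, 1.09 and 0.31, against -0.038, 0.0071 and -0.03 over all genes. The summed level of the 12 genes was 734 to 848 CPM in isolation and 915 to 938 CPM in co-culture for lineage 22. It was 668 to 736 and 869 to 956 CPM for lineage 35, and 672 to 691 and 853 to 989 CPM for lineage 45. DUSP1, a phosphatase of that class, rose by 1.75, 3.82 and 1.99. FOS rose by 2.78 in lineage 22 and 2.68 in lineage 45, the largest changes of the list there. Its value in lineage 35 is not given here, which does not mean that it was unchanged. The largest rise of the list in lineage 35 was 4.07. The part of sorting and handling in the chaperone changes was not tested. In the second table, where 48.7% of all genes were called, lineage 03 against Pop had 0 TRiC subunits called higher and 6 lower of 8, with CCT2 at -0.74 ± 0.10 (SE, adjusted p = 6.53e-05), and 2 cochaperones higher and 6 lower of 14. FKBP4 was lower there, at -0.80 ± 0.08 (SE, adjusted p = 3.4e-06), as was PTGES3, the HSP90 cochaperone p23, at -0.67 ± 0.081 (SE, adjusted p = 1.62e-05). HSF1 was higher, at 0.51 ± 0.064 (SE, adjusted p = 2.64e-05).

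For each member the genes with the most similar pattern were sought among 10700 other genes with a mean of at least 5 CPM, by Pearson's r of log2 CPM over the 18 libraries of the first table, and r was then taken over the 12 libraries of the second. These values describe libraries that share groups. The second-table values include replicate 1 of Pop, which stood apart for HSP90AA1 and was highest in its group for HSPD1 and HSPE1. HSPD1 was most like CCT8 (r = 0.97, and 0.96 in the second table) and next UTP11L (0.97, then 0.41). HSPE1 was most like TMA7 (0.97, then 0.48) and next ACAT1 (0.97, then 0.88). HSP90AA1 was most like UTP6 (0.96, then 0.48) and next DDX1 (0.96, then 0.95). Among the other 7 members, BAG3 went with TWF2 (0.98, then -0.32), DNAJB1 with OAZ1 (0.98, then 0.33), HSPA8 with EEF1B2 (0.98, then 0.15), HSPB1 with RPLP2 (0.94, then 0.13), HSPH1 with SHCBP1 (0.97, then 0.70), HSPA1A with TNNT1 (0.93, then -0.069) and HSPA1B with KRT19 (0.97, then 0.36). Next came DUSP4 for BAG3 (0.98, then -0.11), TECR for DNAJB1 (0.97, then 0.040) and RPL24 for HSPA8 (0.98, then 0.019). For HSPB1 it was PEBP1 (0.94, then 0.068), and for HSPH1 GTF2E2 (0.96, then 0.28). For HSPA1A it was PFKP (0.92, then -0.16), and for HSPA1B GANAB (0.97, then 0.29). As 1 pair among the members, HSPA1B and DNAJB1 correlated at 0.83 in the second table, and at 0.90 after group means were removed. In the first table this pair stood at 0.59 and 0.57.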

How the data were processed

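Stranded mRNA libraries were sequenced as 75-base pairs, per the labels' protocols. The authors deposited length-scaled estimated counts per gene, made with STAR 2.6.1d and Salmon 1.4.0 on GRCh38, per the submitters' processing notes; how the values were scaled, and the annotation, are not given in the sources used here. Deposited estimated counts were rounded to whole numbers. edgeR 4.0.16 (filterByExpr, TMM, quasi-likelihood test, R 4.3.3) was fitted with 1 mean per group over all groups of a table, and p-values were adjusted over all tested genes by Benjamini-Hochberg. No test was made across the 2 tables. A log2 fold change is from that fit; its interval is 2 standard errors either way. Alternatives were DESeq2 1.42.0, RLE scaling, no filter, a filter of 5 CPM in 3 libraries, replicate number as a block, only the groups compared, HSPA1A and HSPA1B summed, and leaving out each library. Scripts were tested on simulated data; a first bar for the share of 2-fold changes called was narrowly missed in the first table and was then replaced by bars on bias, false calls and 4-fold changes, so a gene that was not called may still have changed.

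Named genes were the 10 members, up to 4 genes of each list with the smallest p in a comparison and a mean of at least 5 CPM, and the 2 genes most like each member. The members and lists were chosen with earlier results of these data known. Replicate numbers are in the labels, which do not say what they mark; same-numbered libraries deviated together (r = 0.36, 0.25 and 0.17, all above 0.1) only between lineages 22 and 45 from co-culture. The spread between libraries gave a biological coefficient of variation of 10.4% in each table.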

Additional observations from a re-analysis of the deposited data

Results flagged for a closer look

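An interaction test found 6 members whose response to co-culture was not the same in every pair of lineages. The mitochondrial pair was the clearest: HSPD1 differed by 0.85 between lineages 22 and 35 and by -0.76 between lineages 35 and 45 (log2 scale, first lineage minus second), and HSPE1 by 0.95 and -0.81. Both rose in lineages 22 and 45 and fell in lineage 35. BAG3 differed in all 3 pairs, by -0.55 between lineages 22 and 35, 0.44 between lineages 22 and 45, and 0.99 between lineages 35 and 45. HSPH1 differed by -0.37 and 0.34 in the pairs with lineage 35, HSPB1 by 0.40 between lineages 22 and 35, and DNAJB1 by 0.30 between lineages 35 and 45. The calls of HSPH1, HSPB1 and DNAJB1 were each lost in some alternatives, and those of HSPD1, HSPE1 and BAG3 in none. Each of the 10 differences other than that of BAG3 between lineages 22 and 45 rests on the libraries labelled 35, whose identity across conditions was not tested.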

How the results depend on the processing

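Of 73 member values called, 51 were called in every alternative. Counts of called members outside a factor of 1.5 were as follows. With only the groups compared, 2 (of 4) were called between co-cultured lineages 22 and 35, 3 (of 5) between the responses of 35 and 45, 0 (of 1) for 10 against Pop, 5 (of 3) for 03 against 10, and 2 (of 1) for 10 against 13. With DESeq2, 2 (of 1) were called between the responses of 22 and 45, 1 (of 0) between co-cultured 35 and 45, and 2 (of 1) for 10 against 13. RLE scaling gave 3 (of 5) between the responses of 35 and 45. The replicate block gave 2 (of 1) between the responses of 22 and 45; it also added HSPD1 for 03 against 10 (-0.27, adjusted p = 0.0417) and DNAJB1 between co-cultured lineages 22 and 45, and changed no other call. The cause was not tested.

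Leaving out single libraries, the counts ran from 3 to 5 between the responses of 22 and 35, 1 to 3 for 22 and 45 and 3 to 5 for 35 and 45; 1 to 5 for isolated 22 against 45; 2 to 4 for co-cultured 22 against 35 and 0 to 1 for 35 against 45; 1 to 4, 0 to 2 and 0 to 2 for 03, 10 and 13 against Pop; and 0 to 1 for 10 against 13. Against isolation, co-culture gave 9 calls in lineage 22, 7 to 10 in lineage 35 and 8 in lineage 45. Direction reversed in HSPA1A of lineage 45 without co-culture replicate 2, the values without 1 library running from -0.047 to 0.20, and in HSPD1 of 13 against Pop without Pop replicate 3, from -0.000245 to 0.24; neither reversed value was called. Member values were followed here for the co-culture changes and wherever any setting made a call (98 of 180), a choice made after seeing the alternatives; the other 82 were never called, and 37 of them changed sign.

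The lowest level of a member in any library was 46.0 CPM, and each group had 3 libraries. Co-culture is confounded with culture time, sorting and extraction kit. HSPA1A and HSPA1B share most of their sequence, and the second table holds no co-culture group.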
